A study of Mus musculus with 8 samples.

Results

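The genes of the desmosome and of the intercalated disc were measured in the hearts of mouse embryos that carry a weakened allele of the histone demethylase Lsd1 and in wild-type hearts. The 10 genes were *Dsg2*, *Dsc2*, *Jup*, *Pkp2*, *Dsp*, *Des*, *Vcl*, *Tln2*, *Xirp1* and *Tjp1*. Every probe set that the platform annotation gives to one of these genes and to no other was taken, which gave 25 of the 45101 probe sets on the array and 10 of the 18194 genes with a probe set of their own. A probe set is a group of short probes whose joint brightness stands for 1 transcript.

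The study asked which transcripts differ between the genotypes, in hearts of a strain in which ventricular septal defects occur. RNA of whole hearts at E18.5, shortly before birth, was hybridized to Affymetrix Mouse430 arrays, 1 array for each of 5 wild-type and 3 2lox/2lox hearts. The 2lox/2lox embryos are homozygous for the floxed allele of *Kdm1a* (*Aof2*) that has not met a Cre recombinase, in every cell of the body, and this allele carries point mutations in the tower domain, the part of Lsd1 that binds its partner CoREST. The labels call this genotype an Lsd1 knock-out, whereas the study describes a hypomorph that still makes a mutated protein. The hearts were separate animals with no agent given. The study describes the groups as littermates, and the litter of each heart is not known here. The tissue was the intact heart, so fewer cells of a type and less RNA per cell cannot be told apart. The transcript of *Kdm1a* lay between 9.44 and 9.55 on the log2 scale in the 2lox/2lox hearts and between 10.26 and 10.36 in the wild-type hearts at the brighter of its probe sets, and it fell by 0.81 (SE 0.06, limma adjusted p = 5.15e-04).

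The intercalated disc is the end-to-end contact of heart muscle cells, where desmosomes tie intermediate filaments to the membrane, adherens junctions tie in the actin of the myofibrils, and gap junctions pass the electrical impulse. In a desmosome, cadherins of the Dsg and Dsc families reach across to the neighbouring cell, the armadillo proteins plakoglobin and plakophilin hold their tails, and desmoplakin joins the plaque to desmin filaments. Mutations of these genes are known in inherited arrhythmogenic cardiomyopathy, and in embryos the junctions lie along the whole membrane before they gather at the cell ends.

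Promoter windows of RefSeq on GRCm38.p6, 250 bases before to 50 after a gene's start, were read for 5 of the 10 genes, *Des*, *Jup*, *Dsp*, *Vcl* and *Tjp1*. Windows of *Dsg2* and *Dsc2* were not read, since their chromosome was left out for the 10 genes but not for the windows of all genes. The windows of *Des*, *Jup* and *Vcl* are shown because, of these 5 genes, they had the highest differences at their brightest probe sets, though none passed the test and the other probe set of *Vcl* had the opposite sign. Only bases outside the annotated gene are printed. All run 5′ to 3′ on the strand of the gene, from chr1:75360042-75360291 (plus strand) for *Des*, chr11:100397840-100398040 (minus strand) for *Jup* and chr14:20929148-20929382 (plus strand) for *Vcl*. Capitals mark an E-box of the letters CAGCTG in *Des*, a GC box of the letters GGGCGG, here on the other strand, in *Jup*, and a CArG box, the motif of serum response factor, in *Vcl*.
Des: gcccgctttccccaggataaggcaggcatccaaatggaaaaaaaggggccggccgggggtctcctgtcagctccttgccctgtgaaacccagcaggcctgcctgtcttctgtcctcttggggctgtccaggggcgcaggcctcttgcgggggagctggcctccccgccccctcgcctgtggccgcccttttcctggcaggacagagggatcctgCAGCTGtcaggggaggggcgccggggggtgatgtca
Jup: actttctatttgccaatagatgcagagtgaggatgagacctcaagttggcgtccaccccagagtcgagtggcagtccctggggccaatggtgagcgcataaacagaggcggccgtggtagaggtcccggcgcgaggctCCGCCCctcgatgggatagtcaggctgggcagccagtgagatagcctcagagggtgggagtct
Vcl: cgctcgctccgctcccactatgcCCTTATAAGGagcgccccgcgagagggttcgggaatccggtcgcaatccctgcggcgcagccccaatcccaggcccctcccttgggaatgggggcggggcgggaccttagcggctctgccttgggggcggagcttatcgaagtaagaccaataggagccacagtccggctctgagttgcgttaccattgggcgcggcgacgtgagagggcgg

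Over the whole windows and both strands, the GC box was in all 5, against 35.7% of the 32851 windows of the table. The E-box CAGCTG was in the window of *Des* alone of the 5 and in 16.3% of all windows, and the CArG box was in that of *Vcl* alone and in 1.63% of all. The TATA box TATAAA (13.6% of all windows), the MCAT motif CATTCCT (5.36%) and the MEF2 site (3.19%) were in none of the 5. GC boxes and the other motifs were searched separately and may share bases. A match is a run of letters and not a measured binding site.

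No probe set of the 10 genes differed between the genotypes at an adjusted p of 0.05. The rule called 36 of all 45101 probe sets (0.0798%), and the lowest adjusted p among the 25 was 0.186, for *Des* (limma, Benjamini-Hochberg over all probe sets). The log2 difference, 2lox/2lox minus wild-type, was above 0 for 13 of the 25 and below 0 for 12, with a median of 0.00 and a range from -0.66 to 0.62. The median over all probe sets was also -0.00. At an unadjusted p under 0.05, 6 of the 25 were higher in 2lox/2lox hearts, where 5.97% of all probe sets were, and 4 were lower, where 4.94% were. All 2lox/2lox hearts lay above all wild-type hearts for 3 of the 25 (3.41% of all probe sets) and below them for 1 (2.71%). Probe sets of one gene read the same RNA and are not independent, so these counts describe 10 genes and not 25.

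For each gene, the probe set whose mean over the 8 hearts was highest is called its brightest. Among the 10 brightest probe sets, 4 had an unadjusted p under 0.05 and a higher level in 2lox/2lox hearts (*Xirp1*, *Jup*, *Des* and *Tln2*) and 0 a lower one. Over the brightest probe sets of all 18194 genes, 5.82% were higher and 4.41% lower at that p. The median difference was 0.11 against -0.00 over the same 18194. Of the 18194, 6689 had a mean less than 1 log2 unit above the lower quartile of all values or below it, as did 0 of the 10. These shares are therefore not matched in level. Among the 15 other probe sets, 2 were higher and 4 lower at that p, with a median of -0.02. The desmosomal cadherins, desmoplakin, plakophilin 2 and *Tjp1* had values from -0.14 to 0.05 at their brightest probe sets, and the larger positive values belonged to plakoglobin, desmin, Xin and talin 2.

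**Figure D1:**
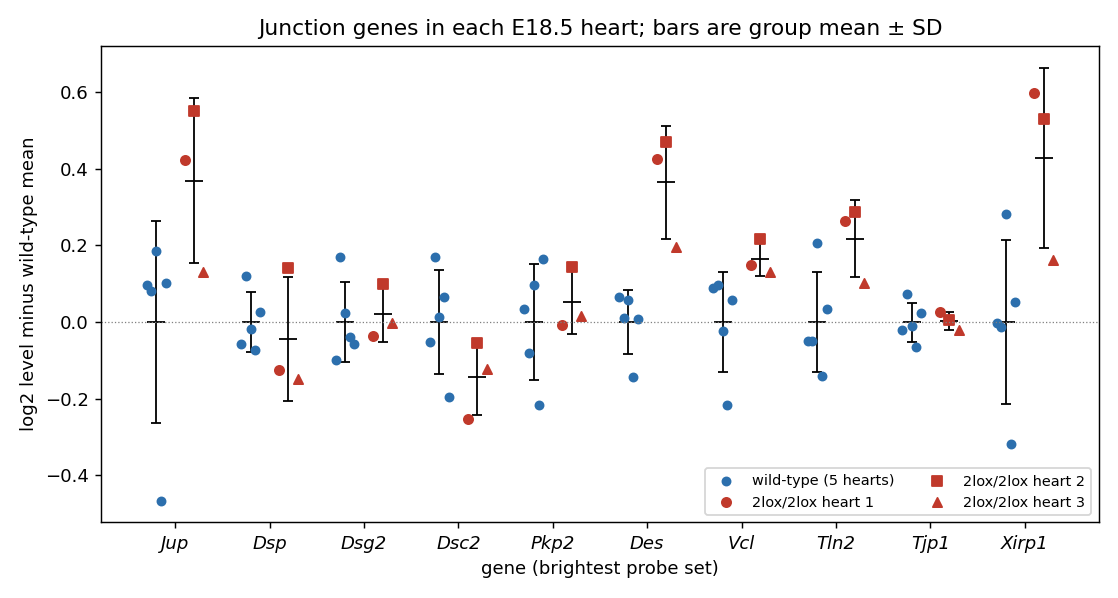
The log2 level of the brightest probe set of each gene in each heart, minus the wild-type mean of that gene (vertical axis), for the 10 genes (horizontal axis). Blue points are the 5 wild-type hearts, red shapes the 3 2lox/2lox hearts, and bars the group mean ± SD. For Des and Vcl all red shapes lie above all blue points, 2lox/2lox heart 3 (triangle) is the lowest of the red shapes for Jup, Dsp, Des, Vcl, Tln2, Tjp1 and Xirp1, and wild-type heart 4 is the low blue point for Jup (7.10) and Xirp1 (8.77).

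The desmosomal cadherins lay within the wild-type range or close to it at their brightest probe sets. *Dsg2*, the desmoglein of heart muscle, read 10.50, 10.63 and 10.53 in the 2lox/2lox hearts and 10.43, 10.70, 10.56, 10.50 and 10.48 in the wild-type hearts at probe set 1439476_at. The 2lox/2lox hearts lay inside the wild-type range, and the difference was 0.02 with a 95% interval from -0.14 to 0.18, so that a fold between 0.907 and 1.13 is compatible with these arrays (limma adjusted p = 0.960). The probe sets 1449740_s_at and 1425619_s_at gave differences of -0.00 and -0.02. *Dsc2*, the desmocollin that pairs with it, read 7.55, 7.75 and 7.68 against 7.75, 7.98, 7.82, 7.87 and 7.61 at 1426911_at. The groups overlapped, and the difference was -0.14 (95% interval -0.33 to 0.05, limma adjusted p = 0.603).

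A dimmer probe set of each cadherin was lower in 2 of the 3 2lox/2lox hearts. *Dsg2* 1460380_at read 6.97, 7.20 and 7.41 in the 2lox/2lox hearts against 7.40, 7.53, 7.62, 7.49 and 7.37 in the wild-type hearts. Its difference was -0.29 (SE 0.10, unadjusted p = 0.0138, limma adjusted p = 0.330), with hearts 1 and 2 below the wild-type range and heart 3 inside it. *Dsc2* 1421156_a_at read 7.15, 7.40 and 7.65 against 7.77, 7.79, 7.65, 7.87 and 7.62. Here too heart 3 was inside the wild-type range and the others below it, and the difference was -0.34 (SE 0.11, unadjusted p = 0.00967, limma adjusted p = 0.309). Without 2lox/2lox heart 3 it was -0.46 (SE 0.10, limma adjusted p = 0.0493). That fit called 797 of all probe sets, against 36 with all hearts. The 2lox/2lox hearts it keeps, 1 and 2, differed from the wild-type hearts in the RNA quality measure given below. The remaining *Dsg2* probe sets, 1449741_at and 1426153_a_at, had differences of -0.10 and -0.16 and lay within 1 log2 unit of the lower quartile of all values, 4.21. Whether such levels exceed background was not tested.

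Of the armadillo proteins, plakoglobin was higher in 2 of 3 2lox/2lox hearts and plakophilin 2 was close to wild-type at its brighter probe sets. *Jup* encodes plakoglobin, which sits in desmosomes and in adherens junctions, and it has a single probe set here. It read 7.99, 8.12 and 7.70 in the 2lox/2lox hearts and 7.66, 7.65, 7.75, 7.10 and 7.67 in the wild-type hearts. 2lox/2lox heart 3 fell inside the wild-type range, and wild-type heart 4 lay well below all other hearts. The means were 7.94 ± 0.22 (SD, n = 3) and 7.57 ± 0.26 (SD, n = 5), a difference of 0.37 (SE 0.15, 95% interval 0.04 to 0.70, limma adjusted p = 0.403). Without wild-type heart 4 the difference was 0.25 (limma adjusted p = 0.460).

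*Pkp2*, the main plakophilin of the heart, read 11.52, 11.67 and 11.54 in the 2lox/2lox hearts and 11.56, 11.44, 11.62, 11.31 and 11.69 in the wild-type hearts at 1449799_s_at. All 2lox/2lox hearts were inside the wild-type range, with a difference of 0.05 (95% interval -0.15 to 0.25, limma adjusted p = 0.896), and 1429183_at gave 0.08. The dim probe set 1460511_at read 5.75, 6.29 and 5.31 against 5.27, 4.98, 5.43, 4.96 and 5.17. Its mean over all hearts lay only 1.18 above the lower quartile of all values. Hearts 1 and 2 were above every wild-type heart and heart 3 was not, and the difference was 0.62 (SE 0.19, 95% interval 0.20 to 1.04, unadjusted p = 0.00810, limma adjusted p = 0.297), the highest of the 25. Without 2lox/2lox heart 3 it was 0.86 (SE 0.16, limma adjusted p = 0.0380), in the fit that called 797 of all probe sets. The last *Pkp2* probe set, 1420259_at, lay near the lower quartile of all values and gave 0.04.

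Desmoplakin, the plaque protein that anchors the filaments, lay close to the wild-type level at its brighter probe sets and below it at a dimmer one. *Dsp* 1435494_s_at read 12.12, 12.39 and 12.10 in the 2lox/2lox hearts and 12.19, 12.36, 12.22, 12.17 and 12.27 in the wild-type hearts. Hearts 1 and 3 of the 2lox/2lox group lay just below the wild-type range and heart 2 just above it, with a difference of -0.04 (95% interval -0.22 to 0.13, limma adjusted p = 0.901), and 1435493_at gave 0.00 (limma adjusted p = 0.993). *Dsp* 1427610_at differed from this, with 8.14, 8.40 and 8.96 in the 2lox/2lox hearts against 9.18, 9.14, 9.08, 8.95 and 9.47. Hearts 1 and 2 lay below every wild-type heart, and heart 3 lay above wild-type heart 4 by a small margin. The means were 8.50 ± 0.42 (SD, n = 3) and 9.16 ± 0.19 (SD, n = 5), and the difference of -0.66 was the lowest of the 25 (SE 0.17, 95% interval -1.04 to -0.29, unadjusted p = 0.00279, limma adjusted p = 0.234). Without 2lox/2lox heart 3 it was -0.89 (SE 0.13, limma adjusted p = 0.0195), again in the fit that called 797 of all probe sets.

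Desmin, the intermediate filament of muscle that inserts in the desmosome, had the smallest p of the 10 genes. *Des* 1426731_at read 10.95, 10.998 and 10.72 in the 2lox/2lox hearts and 10.59, 10.54, 10.59, 10.38 and 10.54 in the wild-type hearts. Every 2lox/2lox heart was above every wild-type heart. The means were 10.89 ± 0.15 (SD, n = 3) and 10.53 ± 0.08 (SD, n = 5), a difference of 0.36 (SE 0.08, 95% interval 0.19 to 0.54) or a 1.29-fold higher level, with an unadjusted p of 8.64e-04 and a limma adjusted p of 0.186. The exact permutation test over the 56 assignments of hearts to groups, two-sided, gave p = 0.0357, the smallest it can give (adjusted p = 0.584). Any probe set whose groups do not overlap gets this value, so it adds nothing to the lack of overlap. Without 2lox/2lox heart 3 the difference was 0.45 (SE 0.07, limma adjusted p = 0.0255), in the fit that called 797 of all probe sets. Without wild-type heart 4, the lowest, it was 0.33 (limma adjusted p = 0.30). The other *Des* probe set, 1426732_at, lay near the lower quartile of all values and gave -0.00.

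The proteins that tie actin to the membrane had positive differences at their brightest probe sets, and none passed the test. *Xirp1* encodes Xin, an actin-binding repeat protein of the disc, and read 9.68, 9.61 and 9.24 in the 2lox/2lox hearts against 9.08, 9.07, 9.36, 8.77 and 9.14. 2lox/2lox heart 3 was below wild-type heart 3, and the others were above every wild-type heart. The difference was 0.43 (SE 0.13, 95% interval 0.13 to 0.73, unadjusted p = 0.00900, limma adjusted p = 0.306), which is the highest among the brightest probe sets.

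*Vcl* encodes vinculin, which binds catenin and talin and joins both to actin. At 1416156_at it read 11.33, 11.40 and 11.31 in the 2lox/2lox hearts and 11.27, 11.28, 11.16, 10.97 and 11.24 in the wild-type hearts. The groups did not overlap, but by a narrow gap, and the difference was 0.17 (SE 0.08, 95% interval -0.01 to 0.34, limma adjusted p = 0.482). At the dimmer 1416157_at the values were 7.89, 7.86 and 8.33 against 8.36, 8.30, 8.13, 7.97 and 8.50. There the groups overlapped, and the sign was the opposite, -0.22 (SE 0.14, limma adjusted p = 0.615).

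*Tln2*, the talin of mature muscle, read 9.41, 9.43 and 9.25 in the 2lox/2lox hearts and 9.09, 9.09, 9.35, 9.0 and 9.18 in the wild-type hearts at 1429111_at. Wild-type heart 3 was above 2lox/2lox heart 3, and the difference was 0.22 (SE 0.08, unadjusted p = 0.0263, limma adjusted p = 0.382). At 1435700_at it read 7.55, 7.51 and 7.36 against 7.25, 7.0, 7.34, 6.92 and 7.35. The lowest 2lox/2lox heart and the highest wild-type heart there differed by about the last printed digit, and the difference of means was 0.30 (SE 0.11, unadjusted p = 0.0197, limma adjusted p = 0.356). The dim 1429112_at went the other way, with 4.89, 4.89 and 4.96 against 5.29, 5.02, 4.99, 5.07 and 5.06. All 2lox/2lox hearts were below all wild-type hearts by little, and the difference was -0.17 (SE 0.07, unadjusted p = 0.0420, limma adjusted p = 0.437).

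*Tjp1* encodes ZO-1, a scaffold at the edge of gap junction plaques and in tight junctions. It read 10.64, 10.62 and 10.59 in the 2lox/2lox hearts and 10.60, 10.69, 10.61, 10.55 and 10.64 in the wild-type hearts. The 2lox/2lox hearts sat inside the wild-type range. The difference was 0.00 with a 95% interval from -0.12 to 0.12, a fold between 0.922 and 1.09, which was the narrowest interval among the brightest probe sets (limma adjusted p = 0.991).

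**Figure D2:**
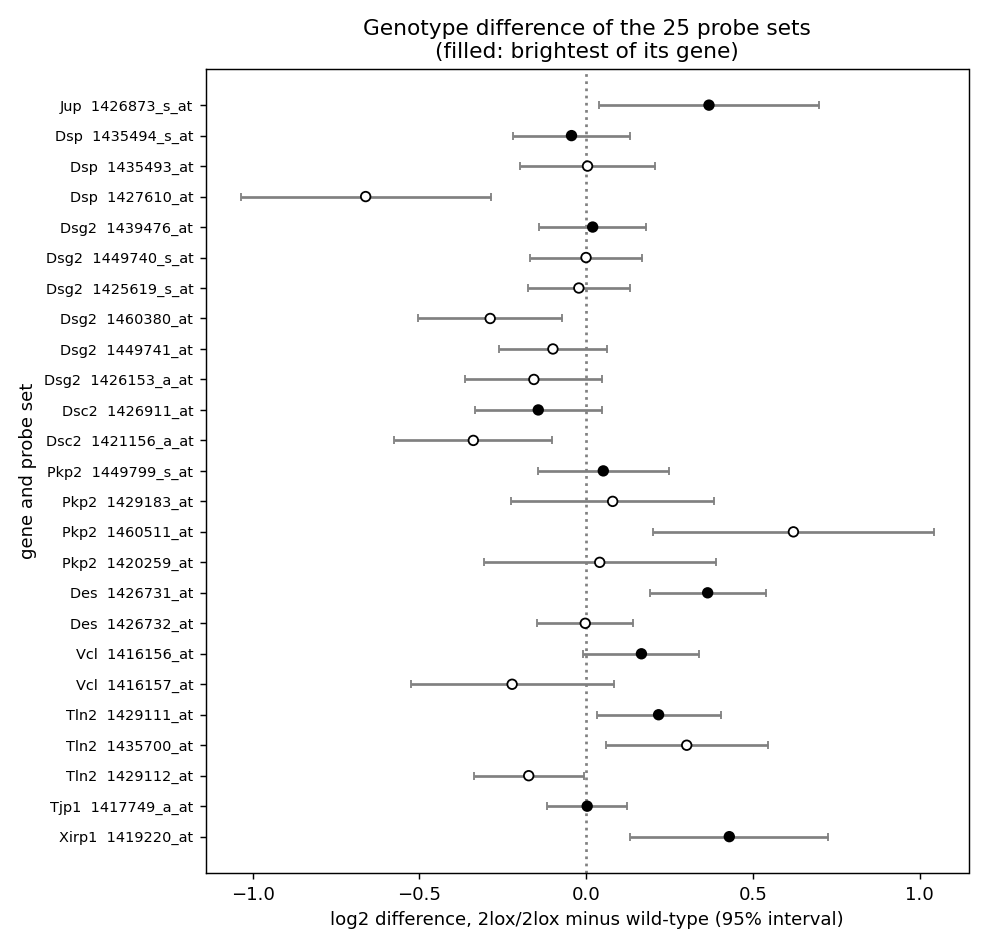
The log2 difference, 2lox/2lox minus wild-type (horizontal axis), for the 25 probe sets of the 10 genes (vertical axis), with 95% intervals from the limma fit. Filled points are the brightest probe set of each gene and open points the others. Dsp 1427610_at (-0.66) and Pkp2 1460511_at (0.62) lie farthest out, while the brightest probe sets of both genes lie near 0.

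The estimates of probe sets of one gene lay apart for *Dsp*, *Dsg2*, *Pkp2*, *Des*, *Vcl* and *Tln2*, and for *Dsc2* they had the same sign, but no such gap passed a test. It was measured in a fit of its own, chosen after the values were seen, in which the difference between a dimmer and the brightest probe set of a gene was compared between the genotypes over 16764 pairs. It called 6 of these pairs at a limma adjusted p of 0.05 (0.0358%) and 0 of the 15 pairs of the 10 genes. The lowest adjusted p of the 15 belonged to *Des* 1426732_at, whose difference from the brightest fell by 0.37 in 2lox/2lox hearts (limma adjusted p = 0.263) and which itself lies near the lower quartile of all values. For *Pkp2* 1460511_at the value was 0.57 (limma adjusted p = 0.270) and for *Dsp* 1427610_at -0.62 (SE 0.18, limma adjusted p = 0.281). The positions of the probes in the transcripts were not used here, so which exons or ends each probe set reads is not stated. Averaged over all its probe sets, *Dsp* gave -0.23, *Dsc2* -0.24, *Dsg2* -0.09, *Vcl* -0.03, *Des* 0.18, *Pkp2* 0.20 and *Tln2* 0.12, with limma adjusted p from 0.340 to 0.957.

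**Figure D3:**
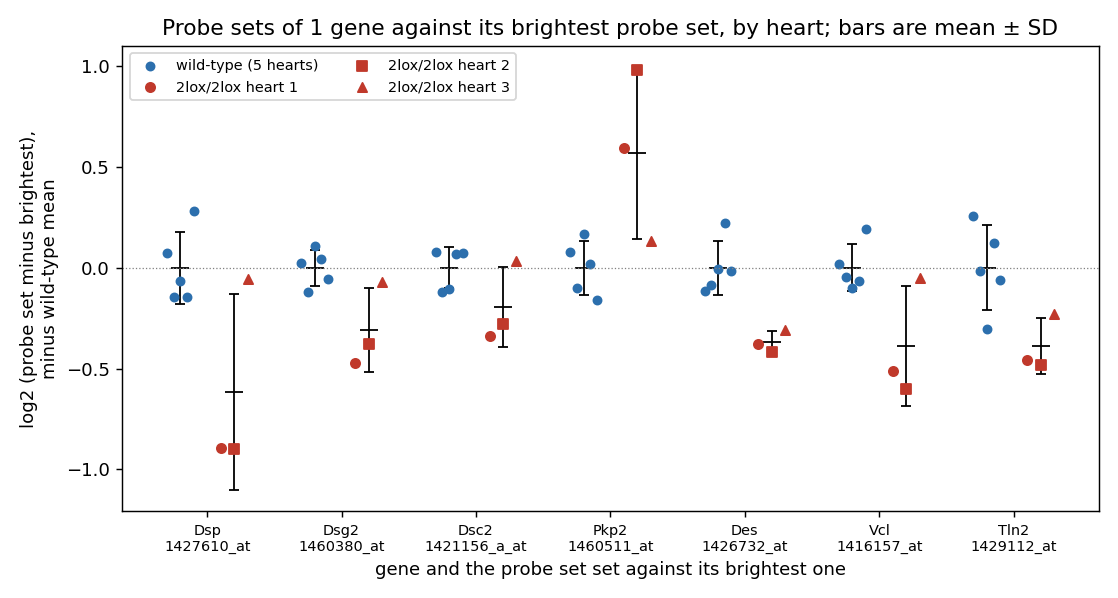
The log2 value of a dimmer probe set minus that of the brightest probe set of the same gene, minus the wild-type mean of this difference (vertical axis), in each heart, for 1 pair of each of 7 genes (horizontal axis). The pair shown is the one with the smallest unadjusted p of its gene. Pairs not shown had genotype differences from -0.18 to 0.08. Blue points are wild-type hearts, red shapes 2lox/2lox hearts, and bars mean ± SD. 2lox/2lox hearts 1 and 2 stand away from the wild-type hearts for Dsp, Dsg2, Dsc2, Pkp2 and Vcl, and heart 3 (triangle) stays with them there.

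2lox/2lox hearts 1 and 2 differed from the wild-type hearts in a measure of RNA quality, and heart 3 did not. The difference between the 3′ and 5′ control probe sets of *Actb* and *Gapdh*, which grows as RNA or its copying is cut short, was 0.52, 0.50 and 0.33 in 2lox/2lox hearts 1, 2 and 3 and 0.32 to 0.38 in the wild-type hearts. With this difference as a covariate, *Dsp* 1427610_at moved from -0.66 to -0.28, *Dsc2* 1421156_a_at from -0.34 to -0.10, *Pkp2* 1460511_at from 0.62 to 0.21, *Xirp1* from 0.43 to 0.13 and *Jup* from 0.37 to 0.11. *Des* moved from 0.36 to 0.21 (unadjusted p = 0.0351), *Vcl* 1416157_at from -0.22 to 0.02, *Tln2* 1429111_at from 0.22 to 0.07 and 1435700_at from 0.30 to 0.16. *Tln2* 1429112_at moved from -0.17 to -0.11 and *Dsg2* 1460380_at from -0.29 to -0.13, and the limma adjusted p of each of the 25 was 0.9999. Some probe sets moved little or away from 0. *Vcl* 1416156_at went from 0.17 to 0.13, *Dsp* 1435494_s_at from -0.04 to -0.12 and *Dsg2* 1449741_at from -0.10 to -0.16. The covariate is partly confounded with the genotype, since the highest values are those of 2 2lox/2lox hearts.

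Wild-type heart 4 was the lowest wild-type heart for 14 of the 25 probe sets, which stand for 10 genes. How often this heart was the lowest over all probe sets was not counted. It was also the lowest wild-type heart in the mean deviation of the cardiomyocyte (-0.09), endothelial (-0.09) and macrophage (-0.16) markers. It was the highest wild-type heart for the skeletal muscle (0.24), mesothelial and epicardial (0.25) and erythroid (1.01) markers. Within the cardiomyocyte list, *Myh6* (13.45) and *Myl7* (13.88) had their highest level of all 8 hearts in wild-type heart 4. Over the 10 brightest probe sets, its mean deviation from the wild-type mean was -0.16, against 0.00 to 0.08 for the other wild-type hearts and 0.15, 0.24 and 0.04 for 2lox/2lox hearts 1, 2 and 3. 2lox/2lox heart 2 had the highest level of all 8 hearts for 5 of the 10 brightest probe sets. Without wild-type heart 4 the differences of *Xirp1* and *Tln2* 1429111_at were 0.35 and 0.18. The part of these hearts in the differences was not tested beyond these values.

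Other genes of cell junctions, 72 in 7 lists, were read at 1 probe set each, the brightest, and 0 of them passed the adjusted threshold. The lowest limma adjusted p was 0.219. At an unadjusted p under 0.05, 13 were higher in 2lox/2lox hearts (5.82% of the brightest probe sets of all genes) and 3 lower (4.41%). All 2lox/2lox hearts lay above all wild-type hearts for 7 (3.16% of the brightest probe sets of all genes) and below them for 0 (2.81%). The median difference of the 72 was 0.06, and 48 were above 0. Over the brightest probe sets of all 18194 genes, 8739 were above 0. Of the 72, 10 had a mean less than 1 log2 unit above the lower quartile of all values or below it, against 6689 of the 18194.

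Of the other desmosome genes, 1 of 11 measured (of 14 listed) was higher at an unadjusted p under 0.05 and 0 lower, with a median of -0.01. That gene was *Perp*, a tetraspan membrane protein of desmosomes, with 10.52, 10.51 and 10.50 in the 2lox/2lox hearts against 10.08, 10.03, 10.24, 9.80 and 10.40. The groups did not overlap, and the difference was 0.40 (SE 0.11, limma adjusted p = 0.266). *Ppl*, periplakin of the epithelial plaque, gave -0.17 (limma adjusted p = 0.595). Of the 11, 3 had a mean below the lower quartile of all values, 4.21. Such dim probe sets bound a difference only weakly, so the median of the list does not show that these genes were unchanged.

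Of the adherens junction genes of the disc, 4 of 10 were higher at an unadjusted p under 0.05, with a median of 0.11. *Ctnnd1*, the p120 catenin that holds cadherins at the membrane, read 9.86, 9.73 and 9.61 against 9.53, 9.45, 9.37, 9.38 and 9.44. All 2lox/2lox hearts were above the wild-type range, with a difference of 0.30 (SE 0.07, unadjusted p = 0.00167, limma adjusted p = 0.219). *Afdn*, afadin, which links nectins to actin, gave 0.23 (limma adjusted p = 0.278) and *Ctnna1*, alpha-catenin, 0.15 (limma adjusted p = 0.401). For *Cdh2*, N-cadherin, the value was 0.19 (limma adjusted p = 0.474), and for *Ctnnb1*, beta-catenin, it was 0.01 (limma adjusted p = 0.986).

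The linkers of actin at the disc and the costamere, where the sarcomere meets the membrane, had 4 of 17 measured genes (of 19 listed) higher at an unadjusted p under 0.05 and a median of 0.12. *Tln1*, the widely expressed talin, read 9.89, 9.84 and 9.56 in the 2lox/2lox hearts and 9.43, 9.48, 9.50, 9.27 and 9.31 in the wild-type hearts. *Flnc*, the filamin of muscle, read 10.89, 10.83 and 10.64 against 10.51, 10.54, 10.54, 10.32 and 10.40. Neither gene's groups overlapped, and the differences were 0.37 and 0.32 (limma adjusted p = 0.228 for each). Without 2lox/2lox heart 3 they were 0.47 and 0.40 (limma adjusted p = 0.0312 and 0.0463), and *Ctnnd1* was 0.36 (limma adjusted p = 0.0456), from a 2lox/2lox group that then holds the hearts with the high 3′ to 5′ control difference alone. With that difference as covariate and all hearts, *Tln1* was 0.17, *Flnc* 0.17, *Ctnnd1* 0.20 and *Afdn* 0.12 (limma adjusted p = 0.9999 for each).

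The gap junction genes of the disc gave 1 lower gene of 3 measured (of 4 listed) at an unadjusted p under 0.05. That was *Gja5*, the connexin of the atria and the conduction system, with 5.64, 5.72 and 6.89 in the 2lox/2lox hearts against 6.80, 6.75, 6.73, 6.80 and 6.90. Hearts 1 and 2 lay more than 1 log2 unit below every wild-type heart, and heart 3 lay among them. The difference was -0.71 (SE 0.23, limma adjusted p = 0.320), and without 2lox/2lox heart 3 it was -1.12 (SE 0.07, limma adjusted p = 6.42e-04). With the 3′ to 5′ control difference as covariate, which sets hearts 1 and 2 apart in the same way, it was -0.05 (limma adjusted p = 0.9999). *Gja1*, the connexin of the working heart muscle, gave 0.13 (limma adjusted p = 0.658).

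The tight junction and scaffold genes had 1 higher and 2 lower of 10 measured (of 11 listed) at an unadjusted p under 0.05, with a median of -0.08. *Tjp3*, encoding ZO-3, gave 0.32 (limma adjusted p = 0.354) and *Marveld2*, tricellulin, -0.21 (limma adjusted p = 0.399) at a level near the lower quartile of all values. Of the intermediate filament genes and their anchors 2 of 11 were higher at that p, with a median of 0.08, and these were *Plec*, the cross-linker plectin, at 0.26 (limma adjusted p = 0.422) and *Dst*, dystonin, at 0.21 (limma adjusted p = 0.458). With the 3′ to 5′ control difference as covariate *Plec* was 0.06, *Dst* 0.08 and *Popdc2*, named next, 0.03. Other named genes kept more of their difference in that fit, with *Sntb1*, also named next, at 0.38, *Tjp3* at 0.26 and *Marveld2* at -0.15. Of the other desmosome genes, *Perp* was 0.34 there and *Ppl* -0.25. The ion channel and disc partners had 1 of 10 measured (of 11 listed) higher, *Sntb1*, a syntrophin, at 0.39 (limma adjusted p = 0.381), and a median of 0.08 with all 10 above 0. *Popdc2*, a membrane protein of heart muscle, gave 0.20 there (limma adjusted p = 0.511).

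**Figure D4:**
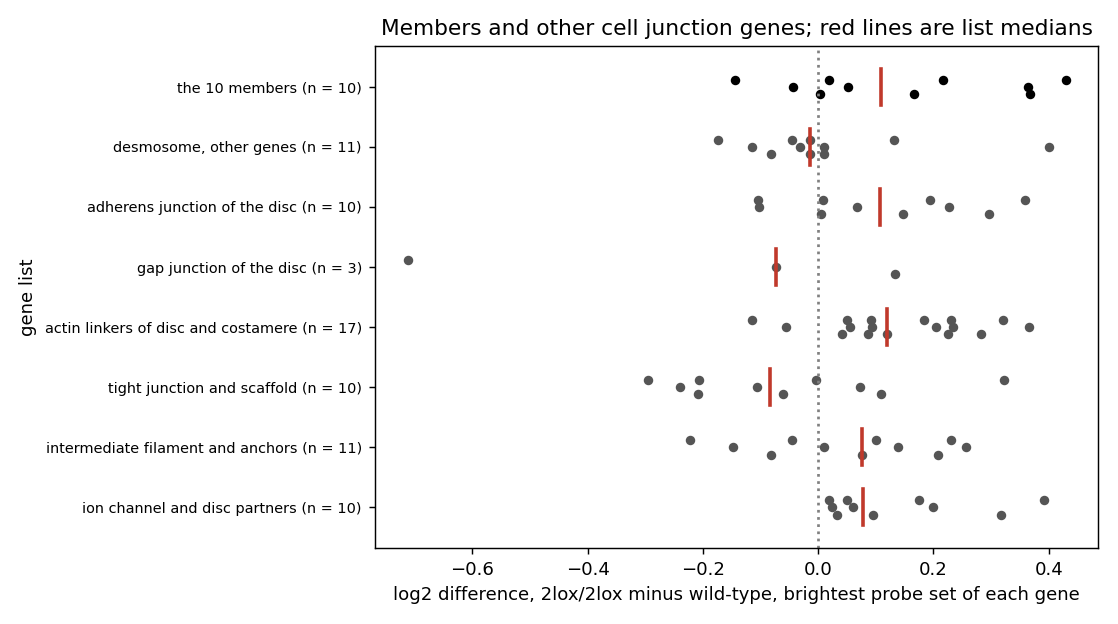
The log2 difference, 2lox/2lox minus wild-type (horizontal axis), at the brightest probe set of each gene, for the 10 genes of the desmosome and disc and for 7 lists of other junction genes (vertical axis). Each point is a gene and each red line the median of its list. Medians run from -0.08 for the tight junction genes to 0.12 for the actin linkers, and Gja5 of the gap junction list is the point at -0.71.

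Markers of the cell types in a heart were read beside these genes, each list as the mean deviation of its genes from the wild-type mean. The 15 cardiomyocyte markers lay between -0.09 and 0.06 in the wild-type hearts and between 0.04 and 0.11 in the 2lox/2lox hearts. The 12 keratinocyte and epithelial markers, which could bring desmosome transcripts from other tissue, lay between -0.07 and 0.05 and between -0.10 and 0.04, with 0 of 12 at an unadjusted p under 0.05. Of these, *Cdh1*, E-cadherin, had a mean of 3.68 in the wild-type and 3.73 in the 2lox/2lox hearts, below the lower quartile of all values, and *Krt14*, a keratin of basal keratinocytes, had 4.34 and 4.47. By immunoblot the study detected E-cadherin protein in E18.5 hearts of both genotypes and reported more of its phosphorylated form in 2lox/2lox hearts. RNA levels measure neither. The 12 skeletal muscle markers lay between -0.10 and 0.24 and between 0.15 and 0.28, and 1 of them, *Tnni2*, fast skeletal troponin I, rose by 1.32 (limma adjusted p = 0.0240). *Ckm*, muscle creatine kinase, gave 1.14 (limma adjusted p = 0.349). The median difference of the 12 was 0.09, with 8 above 0 and 4 below. All 10 macrophage markers were above 0, and 5 were higher at an unadjusted p under 0.05 (5.82% of the brightest probe sets of all genes). Their list lay at -0.16 to 0.14 and 0.20 to 0.38. The 8 mesothelial and epicardial markers ran from -0.30 to 0.25 and from -0.53 to 0.00. The endothelial list ran from -0.09 to 0.12 and from 0.03 to 0.12, and the smooth muscle list from -0.36 to 0.29 and from -0.09 to 0.21. The fibroblast list ran from -0.35 to 0.42 and from -0.03 to 0.13. The erythroid list, with 4 of 8 genes measured, ran from -0.90 to 1.01 and from -0.37 to 0.55, and its highest value was that of wild-type heart 4. The median difference was 0.03 for the fibroblast list and 0.07 for the erythroid list. It was 0.13 for the endothelial list, 0.13 for smooth muscle, -0.15 for the mesothelial and epicardial list and 0.23 for macrophages. For the cardiomyocyte list it was 0.03, and for the keratinocyte and epithelial list -0.01. The part of any of these cell types in the levels of the desmosome and disc genes was not tested.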

How the data were processed

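The authors deposited log2 expression levels of 45101 probe sets, normalized between arrays by a method not given in the sources used, from 5 wild-type and 3 2lox/2lox hearts. Array medians lay between 5.03 and 5.10, and no further normalization was applied. Low values depend most on how background was treated, and no detection calls were used. The number of arrays limits the precision. Groups came from the labels.

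All probe sets were fitted together by lmFit and eBayes of limma 3.58.1 under R 4.3.3 (2lox/2lox minus wild-type, two-sided, Benjamini-Hochberg over all probe sets, threshold 0.05). Gene names came from the platform annotation, which gave 1 gene for 34958 probe sets, several for 932 and none for 9211, and 0 probe sets of the 10 genes were lost to annotation with several genes. Per-heart values are given for the brightest probe set of each of the 10 genes and for those with an unadjusted p under 0.05 or groups that do not overlap, and *Vcl* 1416157_at was added after its values were seen. Of each list, the genes past the threshold or up to 2 with the smallest p are named, some with per-heart values. *Cdh2*, *Ctnna1* and *Ctnnb1* were named after their values were seen. The genes, lists and alternatives were chosen with earlier results of these data known. Scripts were tested on simulated data.

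The alternatives were eBayes with an intensity trend, eBayes with robust moderation, centring of each array on its median, quantile normalization, array weights, keeping only probe sets that reached a log2 value of 5 in 3 hearts or whose mean passed the median, a block on the replicate number, covariates (a sex score, or the control difference between 3′ and 5′ ends), a fold of 1.4, the exact permutation test, the mean of a gene's probe sets, and each heart left out in turn. Hearts that share a replicate number did not deviate together (correlations of 0.01, -0.08 and -0.05), so the numbers were not taken as pairs.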

Additional observations from a re-analysis of the deposited data

Results flagged for a closer look

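In the wild-type group, 3 of the 25 probe sets had a heart that stood apart from the other 4 by Dixon's criterion (critical value 0.71), which chance gives in about 1 in 20 groups. *Jup* 1426873_s_at read 7.10 in wild-type heart 4, the lowest of all hearts. *Des* 1426731_at read 10.38 in the same heart. *Tln2* 1429112_at read 5.29 in wild-type heart 1, the highest of all hearts, at a level near the lower quartile of all values.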

How the results depend on the processing

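The alternatives gave 743 values for the log2 differences of 39 probe sets, of which 692 kept their direction and their side of the threshold, 43 were values that did not pass the test and changed sign, and 8 passed the threshold only when a heart was left out. All 8 came from leaving out 2lox/2lox heart 3. The 692 include the fold rule and the exact permutation test for each probe set of the 10 genes. Both reuse the difference of the main fit, and neither could bring a probe set past the threshold (lowest adjusted p of the permutation test 0.584). They therefore say nothing on stability. Of the 10 genes, 0 probe sets passed in the fit of all hearts, and 0 to 4 did with a heart left out: *Dsp* 1427610_at, *Dsc2* 1421156_a_at, *Pkp2* 1460511_at and *Des* 1426731_at. Of the 72 listed junction genes, 0 passed, and 0 to 4 did with a heart left out. Of all probe sets, 36 passed, 17 to 797 with a heart left out (797 without 2lox/2lox heart 3), 9 with the 3′ to 5′ control difference as covariate and 0 with the replicate number as a block. With that block 0 probe sets of the 10 genes and 0 listed genes passed, so it changed no call among them, and the numbers are no pairing known from the design. With 3 2lox/2lox hearts, 1 heart decides several calls. The litter of each heart was not known, and dim probe sets bound a difference only weakly.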
